A study of Mus musculus with 5 samples.

Results

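A set of 10 macrophage genes was followed in RNA of YFP-positive cells sorted from the oviduct (fallopian tube) of mice: Csf1r, Adgre1, Cd68, Mrc1, Lyz2, Fcrls, Tlr7, Cd163, Lyve1 and Tyrobp. They were chosen by symbol, and all 10 were found among the 23857 genes listed. Each of 5 libraries came from 1 young adult female. The genotype of the 2 controls (mice 2 and 3) was Pdgfra-Cre;R26Y, labelled wild-type. The 3 mice labelled as Esr1 conditional knockout, mice 1, 2 and 3, carried Pdgfra-Cre, R26Y and homozygous floxed Esr1, the gene of estrogen receptor alpha. In both groups YFP marks cells in which a recombinase driven by the Pdgfra promoter acted at any time in the history of the cell, and the sort was meant to collect stromal cells. No macrophage marker was part of the sort, per the labels.

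Macrophages are phagocytes that live in most tissues, where they clear dead cells and debris and sense microbes. Their survival depends on the receptor CSF1R, and their identity on the transcription factor PU.1, the product of Spi1. Resident macrophages of connective tissue often carry the scavenger receptors CD206 (Mrc1) and CD163 and, near vessels, LYVE1, a receptor that is also a classical marker of lymphatic endothelium.

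The values are TPM, a share of the library per transcript length, so that levels of different genes can be compared. Of the stromal markers, Pdgfra was at 165 to 298 TPM and Dcn at 6764 to 10110 TPM. Summed, 10 stromal markers gave 25852 and 20217 TPM in control mice 2 and 3. They gave 17514, 12914 and 14657 TPM in knockout-labelled mice 1, 2 and 3. Summed, 10 epithelial markers gave 3028 and 3328 TPM against 2156, 12058 and 13148 TPM. In knockout-labelled mice 2 and 3 this was nearly as much as the stromal sum, so the libraries did not hold stromal RNA alone. Most of the epithelial sum was 1 gene, Ovgp1. It was at 2273 and 2463 TPM in control mice 2 and 3 against 1522, 10655 and 11258 TPM in knockout-labelled mice 1, 2 and 3. Esr1, the floxed gene, was at 83.3 and 77.6 TPM in control mice 2 and 3, against 28.9, 85.0 and 170 TPM in the knockout-labelled libraries 1, 2 and 3. It was below both controls in mouse 1 alone, so directions below refer to the labels and not to a measured loss of Esr1. A value for the whole gene cannot show whether the floxed part was removed, so it does not check the genotype labels. The library of knockout-labelled mouse 1 also stood apart from the other 4 on the second principal component, at -53.9 against 6.13 to 18.7. TPM keeps no total depth. From steps in the values of single-exon genes, depth was put at 65.6% of control mouse 2 in control mouse 3 and at 47.1%, 80.6% and 64.7% in knockout-labelled mice 1, 2 and 3. By the same estimate the fewest reads behind a macrophage gene were about 113, for Cd163 in knockout-labelled mouse 3. The labels do not say whether the mice were processed on separate days.

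Of the 10 genes, 9 lay below both controls in each of the 3 knockout-labelled libraries, by mean at 42.4% (Fcrls) to 57.1% (Csf1r) of the control level. The same separation was seen for 21.9% of the 19292 genes tested. The exception was Lyve1, at 95.2% of control. In the limma fit 0 of the 10 had an adjusted p under 0.05, where 0.0156% of all tested genes passed in the lower direction, and 9 had an unadjusted p under 0.05, where 9.87% of all tested genes did so in the lower direction. Without the library of knockout-labelled mouse 1, 8 of the 10 fell past the threshold, where 2.63% of tested genes did. With library weights 8 did, against 2.05% of tested genes. The lower level was thus shared by 9 genes, and whether it passed depended on the library of mouse 1 and on how the libraries were weighted. In bulk RNA, fewer macrophages and less of these RNAs per macrophage cannot be told apart.

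**Figure D1:**
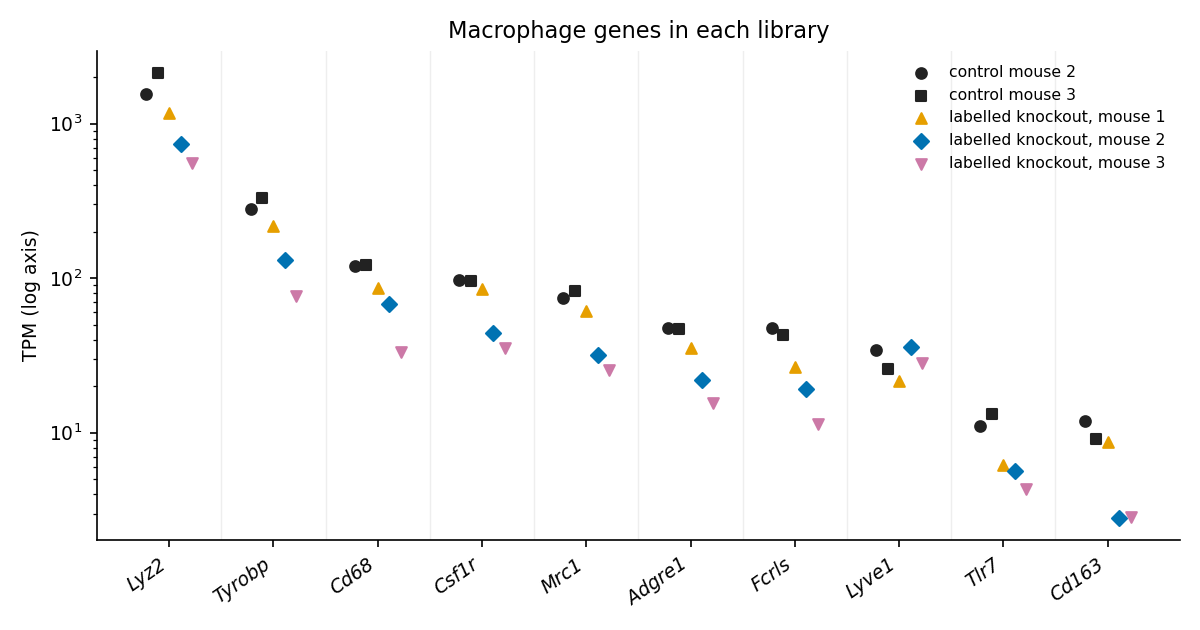
TPM on a log axis of each macrophage gene in each of the 5 libraries, ordered by control mean; black symbols are the 2 controls and coloured symbols the 3 knockout-labelled libraries. For every gene but Lyve1 all coloured symbols lie under both black ones, for example 35.3 to 85.4 against 95.5 and 97.1 TPM for Csf1r.

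Csf1r encodes the receptor for the growth factors CSF1 and IL-34. It had 97.1 and 95.5 TPM in control mice 2 and 3, against 85.4, 44.3 and 35.3 TPM in knockout-labelled mice 1, 2 and 3. The library of mouse 1 sat close under the controls, and those of mice 2 and 3 far under them. The control mean of 96.3 ± 1.12 TPM (SD, n = 2) compared with one of 55.01 ± 26.73 TPM (SD, n = 3) in the knockout-labelled libraries, and their difference on the scale of log2(TPM + 1) was -0.90 (standard error 0.35; limma, adjusted p 0.347). In GENCODE M21 the end of Csf1r overlaps Hmgxb3 on the opposite strand by 873 bases. No strand setting is given in the sources used here, so reads there could count for either gene. Hmgxb3 itself was at 14.4 to 17.2 TPM, with overlapping groups.

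Adgre1 encodes F4/80, the surface protein by which mouse macrophages are usually recognised. It stood at 47.6 and 46.8 TPM in the controls against 35.5, 21.8 and 15.6 TPM in knockout-labelled mice 1, 2 and 3. The groups did not overlap, and the controls differed by about 1 TPM. In limma the groups differed by -1.01 on the log2 scale (standard error 0.32; adjusted p 0.287). Of the 10 profiles over the libraries, that of Adgre1 was nearest to their mean.

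Tyrobp encodes DAP12, the adaptor that carries signals from activating receptors such as TREM2. Its level was 281 and 332 TPM in the controls against 216, 132 and 76.2 TPM in knockout-labelled mice 1, 2 and 3. After Lyz2 it was the most abundant of the 10, and in mouse 3 it reached 24.9% of the control mean, the lowest share of any of these genes in any library. On the log2 scale the difference between groups was -1.23 (standard error 0.40; limma, adjusted p 0.292). Hcst, a related adaptor gene that lies 127 bases away on the opposite strand, did not share the pattern, at 12.8 and 17.3 TPM in the controls against 17.97 and 21.49 TPM in knockout-labelled mice 1 and 2, and was listed at 0 in mouse 3.

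Fcrls encodes an Fc receptor-like scavenger protein of resident macrophages and microglia. It was at 47.4 and 42.7 TPM in the controls against 26.7, 19.1 and 11.5 TPM in knockout-labelled mice 1, 2 and 3. All 3 lay well under the lower control, and Fcrls had the largest fold change of the 10, -1.27 on the log2 scale (standard error 0.33; limma, adjusted p 0.212).

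Tlr7 encodes an endosomal sensor of single-stranded RNA. Its level was 11.1 and 13.2 TPM in the controls against 6.14, 5.65 and 4.31 TPM in knockout-labelled mice 1, 2 and 3. Here the library of mouse 1 did not sit near the controls: at 50.5% of their mean it was close to that of mouse 2, at 46.6%. Tlr7 accordingly had the smallest adjusted p of the 10, 0.192 (limma, log2 fold change -1.05, standard error 0.23). It was also the only member whose exact permutation p, two-sided over the 10 assignments of the libraries, was the smallest possible, 0.1; for the other members lying below the controls that p was 0.2.

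Mrc1 encodes the mannose receptor CD206, which takes up glycoproteins. It was at 74.8 and 82.2 TPM in the controls against 61.0, 31.8 and 25.4 TPM in knockout-labelled mice 1, 2 and 3. As for Csf1r, mouse 1 lay nearer the controls than mice 2 and 3 did. In limma the groups differed by -1.07 on the log2 scale (standard error 0.35; adjusted p 0.292).

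Cd163 encodes the scavenger receptor for haemoglobin bound to haptoglobin. It was the lowest of the 10, at 11.8 and 9.15 TPM in the controls against 8.73, 2.80 and 2.86 TPM in knockout-labelled mice 1, 2 and 3. Mouse 1 was within 1 TPM of control mouse 3, while mice 2 and 3 were at 26.7% and 27.3% of the control mean. On the log2 scale the difference between groups was -1.13 (standard error 0.44, the widest of the 10; limma, adjusted p 0.348).

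Cd68 encodes a lysosomal membrane glycoprotein of phagocytes. It was at 119 and 122 TPM in the controls against 86.3, 68.0 and 33.3 TPM in knockout-labelled mice 1, 2 and 3. The controls were nearly equal, and the 3 other libraries spread over a wide range beneath them. In limma the groups differed by -1.04 on the log2 scale (standard error 0.37; adjusted p 0.327), and Cd68 was 1 of the 2 members that did not pass without knockout-labelled mouse 1 (adjusted p 0.0561).

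Lyz2 encodes lysozyme M, an antibacterial enzyme that macrophages and neutrophils make in quantity. It was the most abundant of the 10, at 1546 and 2125 TPM in the controls against 1163, 738 and 552 TPM in knockout-labelled mice 1, 2 and 3. Its controls differed more than those of most members, but the groups did not overlap. On the log2 scale the difference between groups was -1.22 (standard error 0.35; limma, adjusted p 0.238). Lyz1, a near-identical copy 5476 bases away, was at 24.1 and 36.1 TPM in the controls against 12.8, 8.33 and 4.50 TPM in the knockout-labelled libraries. Reads shared between the copies make both levels uncertain.

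Because 9 of the genes separated the groups in the same direction, the sequence before their start sites was examined for the core of PU.1 sites, GAGGAA, on both strands. RefSeq windows on GRCm38.p6, the build that matches mm10, existed for 5 members: Mrc1, Fcrls, Cd163, Lyz2 and Cd68. Between bases -250 and -30 before the start, 3 of the 5 windows (Mrc1, Fcrls and Cd68) held a match, as did 20.5% of all 32851 windows. The longer site GAGGAAGT, which contains the core, was in 0 of the 5 and in 2.05% of all windows. The windows of Mrc1, with 3 matches on the reverse strand (read here as TTCCTC), and of Cd68, with 1 match, are shown 5′ to 3′ on the strand of the gene, with matches in capitals. They lie at chr2:14229164-14229384 (plus strand) and chr11:69666200-69666420 (minus strand). A match is a description of the letters only.
Mrc1: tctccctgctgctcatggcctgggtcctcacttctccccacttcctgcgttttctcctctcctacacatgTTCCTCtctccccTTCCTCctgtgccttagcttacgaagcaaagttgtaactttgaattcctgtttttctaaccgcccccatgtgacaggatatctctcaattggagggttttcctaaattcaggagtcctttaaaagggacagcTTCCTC
Cd68: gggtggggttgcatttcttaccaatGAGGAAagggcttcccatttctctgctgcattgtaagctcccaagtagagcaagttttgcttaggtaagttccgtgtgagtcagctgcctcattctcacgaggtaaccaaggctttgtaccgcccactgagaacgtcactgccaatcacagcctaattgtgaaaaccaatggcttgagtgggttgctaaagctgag
Spi1, which encodes PU.1, was at 39.9 and 34.3 TPM in the controls against 29.0, 21.4 and 12.3 TPM in knockout-labelled mice 1, 2 and 3. Its libraries separated like those of the 9 genes, with a log2 fold change of -0.87 (limma, standard error 0.34, adjusted p 0.345).

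Lyve1 did not follow the others. Its level was 34.4 and 25.7 TPM in the controls against 21.8, 35.7 and 28.3 TPM in knockout-labelled mice 1, 2 and 3. The highest value was in knockout-labelled mouse 2 and the lowest in mouse 1, on either side of the controls. In limma the groups differed by -0.08 on the log2 scale (standard error 0.25; 95% interval from -0.68 to 0.51; adjusted p 0.890, exact permutation p 0.9), and the difference was 0.095 without knockout-labelled mouse 1. That interval overlaps those of Csf1r (from -1.73 to -0.06) and Fcrls (from -2.05 to -0.49). Relative to Csf1r in the same library, Lyve1 was at 0.354 and 0.269 in the controls, 0.255 in knockout-labelled mouse 1, and 0.807 and 0.801 in mice 2 and 3. No test of Lyve1 against the other members was made.

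Markers of lymphatic endothelium, which also expresses Lyve1, differed in the opposite direction to the macrophage genes. All 5 tested markers of 6 listed lay above both controls in all 3 knockout-labelled libraries, as did 11.9% of all tested genes; the sixth, Ccl21a, was listed at 0 in every library. Mmrn1, of a secreted multimerin, was at 14.3 and 10.8 TPM in the controls against 41.6, 61.91 and 34.97 TPM in knockout-labelled mice 1, 2 and 3. Flt4, the receptor for VEGF-C, was at 10.6 and 9.75 TPM against 17.4, 26.9 and 16.7 TPM. Both were highest in mouse 2, the library with the highest Lyve1. In mouse 1, with the lowest Lyve1 at 21.8 TPM, both genes were above the controls, where Lyve1 was at 34.4 and 25.7 TPM. Prox1 (the lymphatic master regulator, at 2.93 and 3.18 TPM against 6.30, 8.90 and 5.58 TPM) and Reln (6.37 and 4.38 against 11.1, 18.8 and 14.5 TPM), both named after inspection of their values, showed the same order of groups. The log2 fold changes were 1.77 for Mmrn1, 0.90 for Flt4, 0.95 for Prox1, 1.30 for Reln and 0.73 for Pdpn, and 0 of the 5 passed (limma, adjusted p 0.117 to 0.385), where 0.0104% of tested genes did in the higher direction. With library weights 4 of the 5 rose past the threshold, against 1.35% of tested genes, and without mouse 1, 2 did, against 5.35%. At an unadjusted p under 0.05 there were 4 of 5, against 3.7% of tested genes in the higher direction. The summed level of the listed markers was 137 and 111 TPM in control mice 2 and 3 against 180 to 302 TPM in the knockout-labelled libraries. Most of this sum was 1 gene, Pdpn. It was at 103 and 82.4 TPM in the controls against 104, 149 and 230 TPM in knockout-labelled mice 1, 2 and 3. The part of the listed markers in the level of Lyve1 was not tested.

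**Figure D2:**
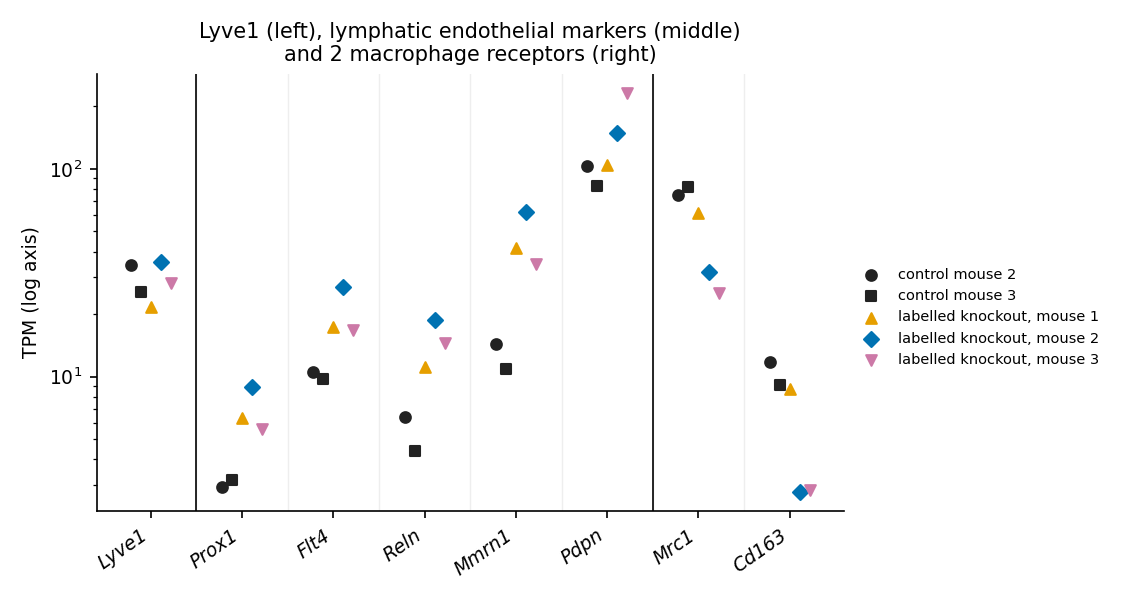
TPM on a log axis, by library, of Lyve1, of 5 lymphatic endothelial markers and of the macrophage receptor genes Mrc1 and Cd163. Lyve1 overlaps between the groups (25.7 and 34.4 against 21.8 to 35.7 TPM), the lymphatic markers lie above both controls and the receptors below them.

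Within the knockout-labelled libraries the macrophage genes varied in concert. Mouse 1 had the highest level of the 3 for 9 of the 10 genes, and mouse 3 the lowest for 8; Cd163 was lowest in mouse 2 and Lyve1 in mouse 1. The median level of the 10, as a share of the control mean, was 72.1% in mouse 1, 44.5% in mouse 2 and 31.2% in mouse 3. Over all tested genes the corresponding medians were 88.6%, 106.8% and 97.3%. The ratio to Csf1r was taken for each member in each library. Mrc1 stood at 0.714 to 0.860 of Csf1r in every library and Adgre1 at 0.416 to 0.493, while Csf1r itself ranged from 35.3 to 97.1 TPM. The widest ratios to Csf1r apart from that of Lyve1 were those of Tlr7 and Cd163, whose highest value was 1.93 and 1.92 times the lowest, against 3.17 for Lyve1.

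**Figure D3:**
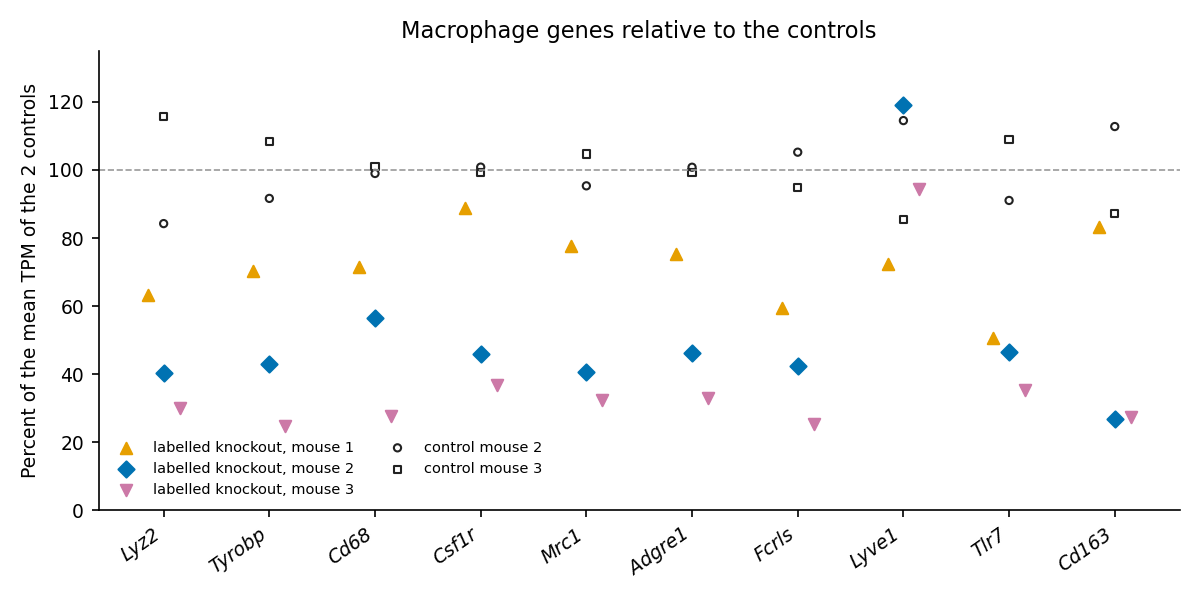
Level of each macrophage gene in the 3 knockout-labelled libraries (coloured) and the 2 controls (open) as a percentage of the mean TPM of the controls; the dashed line is 100%. Apart from Lyve1, mouse 1 lies between 50.5% and 88.7%, mouse 2 between 26.7% and 56.4% and mouse 3 between 24.9% and 36.7%.

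The rest of the macrophage programme was read from lists of genes by function, in none of which a gene passed the threshold over all genes in the fit to 5 libraries (limma). Over all tested genes the median log2 fold change was -0.02, and for the 10 macrophage genes it was -1.06. Among 26 broad macrophage markers the median was -0.91, with 17 below both controls in all 3 knockout-labelled libraries (21.9% of all tested genes were), 0 above (11.9%), and 13 at an unadjusted p under 0.05 in the lower direction (9.87%). Without knockout-labelled mouse 1, 11 of the 26 fell past the threshold (2.63% of tested genes did), and with library weights 7 did (2.05%). C1qb, a chain of complement C1q, was at 318 and 309 TPM in the controls against 229, 180 and 92.6 TPM in knockout-labelled mice 1, 2 and 3. Itgam, the integrin CD11b, named after inspection of its values, had 67.9 and 64.9 TPM against 32.0, 21.4 and 16.8 TPM, with the largest fold change of that list (-1.51 on the log2 scale, limma, adjusted p 0.137). Ctss, the lysosomal protease cathepsin S, was at 362 and 337 TPM against 336, 214 and 99.9 TPM, so that mouse 1 was level with control mouse 3.

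Genes of tissue-resident macrophages had a median log2 difference of -1.08 over 17 genes, 10 of them below both controls in all 3 knockout-labelled libraries, against 21.9% of all tested genes. In the fits without mouse 1 and with library weights, 9 and 6 of the 17 fell past the threshold, against 2.63% and 2.05%. Hmox1, the haem-degrading enzyme that acts after CD163 uptake, was at 224 and 244 TPM in the controls against 123, 110 and 81.7 TPM in knockout-labelled mice 1, 2 and 3 (-1.16 on the log2 scale; adjusted p 0.141 in limma). Gas6, a ligand that bridges dying cells to phagocytes, was at 780 and 498 TPM against 409, 425 and 408 TPM. Selenop, a selenium carrier that many cell types make, did not separate the groups, at 1103 and 1373 TPM and 1548, 1247 and 996 TPM.

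Genes acting with the members were less uniform. Of the ligands of CSF1R, Csf1 was at 85.1 and 53.6 TPM in the controls against 79.2, 47.0 and 37.7 TPM in knockout-labelled mice 1, 2 and 3, and Il34, named after inspection of its values, at 4.92 and 9.07 TPM against 5.33, 5.30 and 7.66 TPM. Both overlapped between the groups, unlike their receptor. Over the 11 ligands, cytokine receptors and myeloid transcription factors the median log2 fold change was -0.43, with 5 below both controls throughout, against 21.9% of all tested genes. Without mouse 1, 3 of the 11 fell past the threshold (2.63% of tested genes did), and with library weights 1 did (2.05%). Csf2rb, the shared beta chain of cytokine receptors, named after inspection of its values, was among these 5 (-1.18, limma, adjusted p 0.192), and Maf, a macrophage transcription factor that other cells use too, was not.

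Receptors and kinases linked to Tyrobp had a median of -0.88 over 12 genes, 7 of them below both controls throughout (21.9% of all tested genes). Without mouse 1, 2 of the 12 fell past the threshold (2.63% of tested genes did), and with library weights 2 did (2.05%). Fcer1g, the sister adaptor of Fc receptors, was at 239 TPM in both controls and at 169, 148 and 68.8 TPM in knockout-labelled mice 1, 2 and 3. Trem2, the best known partner of DAP12, was at 51.8 and 30.6 TPM against 16.0, 34.5 and 37.3 TPM, so it was lowest in mouse 1, where most macrophage genes were highest among the 3. Toll-like receptors and their adaptors, Tlr7 aside, had a median of -0.35 over 17 genes. Of these, 8 were below and 1 above both controls throughout, where 21.9% and 11.9% of all tested genes were. The share above was thus under that of all genes. Without mouse 1, 2 of the 17 fell past the threshold (2.63% of tested genes did), and with library weights 0 did (2.05%). Tlr8, which neighbours Tlr7 on the X chromosome, was at 8.87 and 9.15 TPM against 6.70, 4.54 and 2.24 TPM (-0.95, limma, adjusted p 0.348). The adaptor gene Irak1, in contrast, stayed between 52.2 and 64.3 TPM in all 5 libraries.

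Lysosomal genes, which most cells express, had a median of -0.22 over 16 genes, against -1.04 for Cd68, and 4 of the 16 were below both controls throughout, a share near the 21.9% of all tested genes. Psap, the precursor of saposins, was at 939 and 836 TPM in the controls against 1077, 759 and 700 TPM in knockout-labelled mice 1, 2 and 3, and Lamp1, a general lysosomal membrane protein, at 445 and 408 TPM and 381, 414 and 378 TPM. Neither separated the groups. Scavenger receptors had a median of -0.66 over 11 genes, 6 below both controls throughout (21.9% of all tested genes). Without mouse 1, 0 of the 11 fell and 1 rose past the threshold, against 2.63% and 5.35% of tested genes. With library weights 1 fell, against 2.05% of tested genes. The most abundant scavenger receptors, Colec12 (208 and 225 TPM against 196 to 263 TPM) and Scarb2 (125 and 142 TPM against 112 to 207 TPM), overlapped between the groups.

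**Figure D4:**
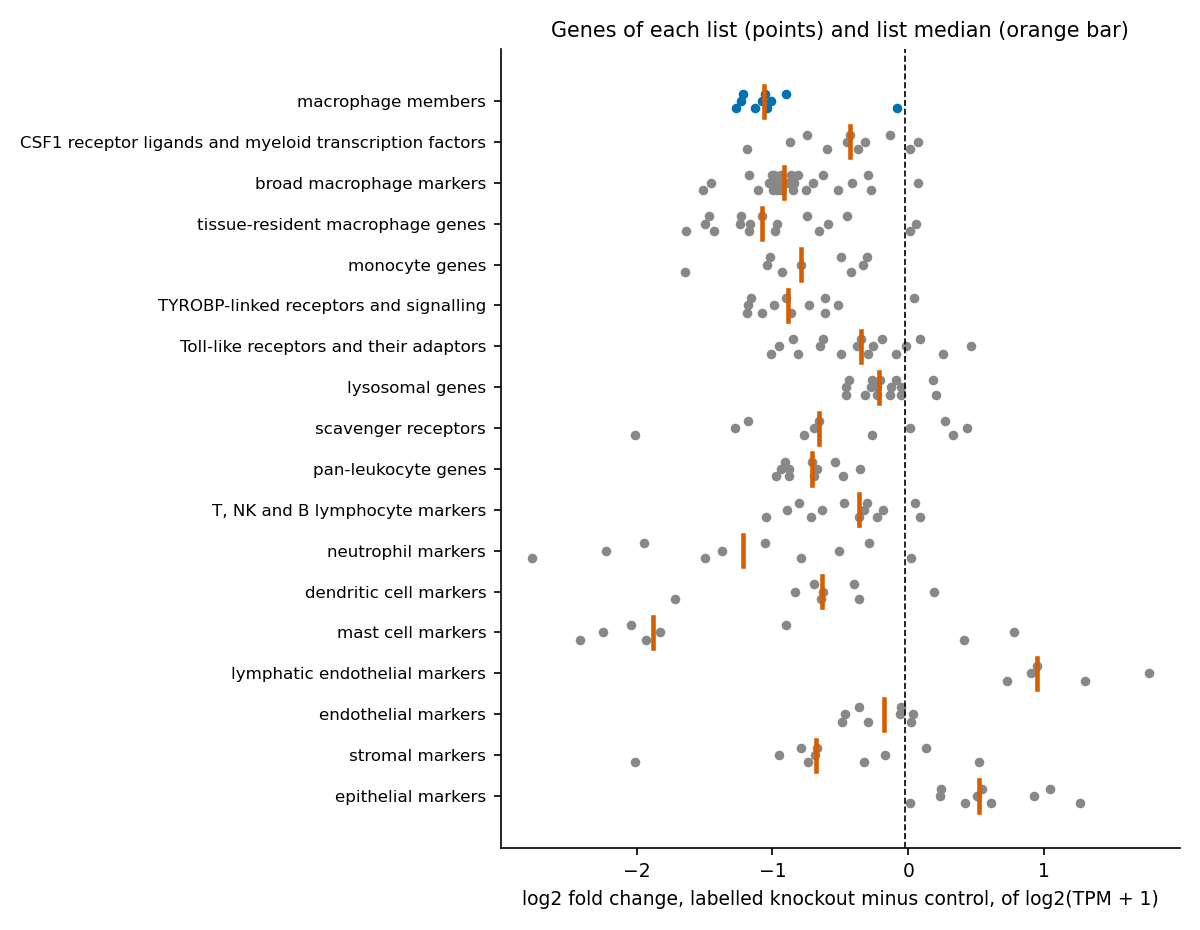
Log2 fold change (labelled knockout minus control, of log2(TPM + 1)) of every tested gene in each list, with the list median as an orange bar and the median of all tested genes, -0.02, as a dashed line. Macrophage, mast cell and neutrophil lists lie to the left and lymphatic endothelial and epithelial markers to the right.

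Markers of other cells also differed between these libraries; the counts below both controls throughout that follow are to be read against 21.9% of all tested genes. The 11 pan-leukocyte genes had a median of -0.71, with 6 below both controls throughout; Ptprc, the leukocyte surface phosphatase CD45, was at 54.6 and 50.8 TPM in the controls against 46.6, 30.4 and 15.6 TPM in knockout-labelled mice 1, 2 and 3. Mast cell markers (median -1.88 over 8 genes) and neutrophil markers (-1.22 over 10) each had 6 genes below both controls throughout, and lymphocyte markers (-0.36 over 13) and dendritic cell markers (-0.63 over 8) had 4 and 1, shares near or under that of all genes. Monocyte genes had a median of -0.79 over 9 genes, 4 below both controls throughout. Without mouse 1, 5 of the 8 mast cell markers fell and 2 rose past the threshold, and 3 pan-leukocyte and 2 monocyte genes fell. In that fit 2.63% of tested genes fell and 5.35% rose. With library weights 5 mast cell markers fell and 0 pan-leukocyte or monocyte genes did, against 2.05% of tested genes. Epithelial markers had a median of 0.52 over 10 genes. Of these, 9 were above both controls in knockout-labelled mice 2 and 3 each, where 47.5% and 40.9% of all tested genes were. In mouse 1, 6 were below both controls, where 53.9% of all tested genes were. Without mouse 1, 6 of the 10 rose past the threshold, against 5.35% of tested genes, and with library weights 0 did, against 1.35%. By library, the summed level of the epithelial markers was 3028 and 3328 TPM in the controls against 2156, 12058 and 13148 TPM in mice 1, 2 and 3. Most of it was Ovgp1, at 10655 and 11258 TPM in mice 2 and 3. With the mean epithelial level as a covariate, the median log2 fold change of the 10 macrophage genes was -0.63, against -0.09 over all tested genes. All 10 stayed negative and 0 of them passed the threshold in that fit. The stromal markers had a median of -0.68 over 10 genes, and 4 were below both controls throughout. TPM are shares of a library, so that the level of each gene depends on that of the others; the part of the epithelial RNA in the macrophage values was not tested beyond this covariate.

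**Figure D5:**
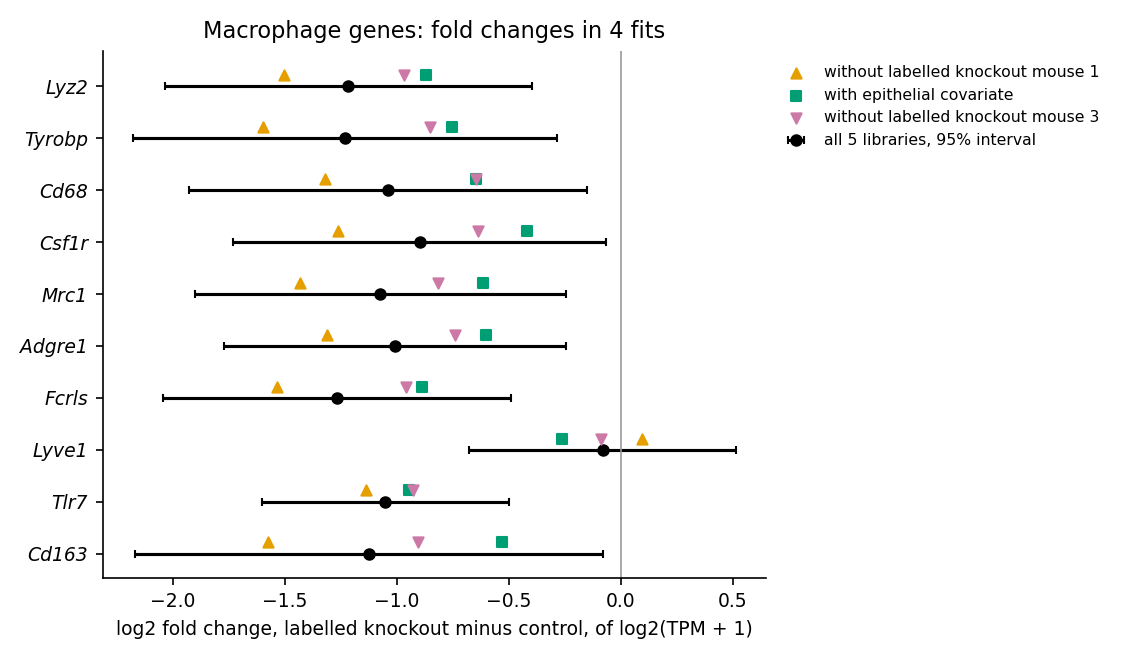
Log2 fold change of each macrophage gene with its 95% interval in the fit to all 5 libraries (black), without knockout-labelled mouse 1 or 3, and with the epithelial covariate. All estimates but those of Lyve1 lie under 0, and the estimates without mouse 1 are farthest from 0 for 9 genes.

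Genes with the most similar profile were sought among 12598 others with a mean of at least 5 TPM, by the root mean square difference of centred log2(TPM + 1) values from the mean profile of the 10 members over 5 libraries. Among the nearest were Dpep2 (0.053), Casp4 (0.057), C1qc (0.070), Fyb (0.072), Has2 (0.079), Tbxas1 (0.088), Slc11a1 (0.094), Fcna (0.096) and Itga4 (0.099). Among the members themselves the difference ran from 0.051 for Adgre1 to 0.29 for Cd163 and 0.67 for Lyve1. Casp4, an inflammatory caspase, was at 47.2 and 49.4 TPM in the controls against 32.9, 25.1 and 16.4 TPM in knockout-labelled mice 1, 2 and 3. C1qc encodes a further chain of C1q and Slc11a1 a metal transporter of phagosomes. Has2, a hyaluronan synthase, is not a macrophage marker, yet followed the same profile. The 100 nearest of these 12598 genes held 7 of the 26 broad macrophage markers and 2 of the 17 tissue-resident genes. They also held 3 of the 11 ligands, cytokine receptors and myeloid transcription factors. Of the 15 Toll-like receptors and adaptors with that mean level 2 were among them, as were 2 of the 11 pan-leukocyte genes. The other lists had 0 genes there.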

How the data were processed

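RNA of sorted cells was sequenced after low-input SMARTer library preparation, per the labels' protocols. The values are TPM per gene as the authors deposited them, summing to the same total in each library. The build is mm10, per the submitters' processing notes, and the name of the deposited table gives STAR as aligner; its version, the gene counter and the annotation are not given in the sources used here. Groups and mouse numbers came from the labels. The model, limma 3.58.1 in R 4.3.3, took log2(TPM + 1) with genotype as only term and eBayes with trend, over genes with at least 1 TPM in at least 2 libraries. P-values are two-sided and adjusted by Benjamini-Hochberg over all tested genes, with a threshold of 0.05. The fit was tested on simulated data. Fold changes on this scale understate those of low genes. Intervals are limma's 95% intervals. P-values rest on the spread between these libraries, with variances moderated over genes by eBayes. With 1 library per mouse, spread between mice cannot be told apart from spread between sorts or library preparations.

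Depth was estimated from the steps of low values of 1-transcript, single-exon genes (GENCODE M21), of which 28.8% to 40.1% lay within 0.1 of a whole read, where 20% would by chance, so reads per gene are approximate. The 10 genes, the 19 lists and the rules were chosen with earlier results of these data known. All 10 are named; of the lists of macrophage function, mainly the 3 genes with the highest mean TPM. Of the 10 genes nearest in profile, 1 is not reported here. The alternatives fitted number 16. Annotation is from GENCODE M21 and RefSeq (GRCm38.p6). The erythroid list had 1 tested gene, Alas2 (log2 fold change 0.91), and the general endothelial list, of 8 genes, a median of -0.18. Python 3.11.15 was used for the remaining steps.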

Additional observations from a re-analysis of the deposited data

How the results depend on the processing

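Of the 10 macrophage genes 0 passed in the fit to 5 libraries; 8 passed with library weights (656 genes called in all, 2.05% of tested genes in the lower direction), and the fits leaving out 1 library gave 0 to 8, with 8 without knockout-labelled mouse 1 alone. Their median log2 fold change, -1.06, was -0.63 with the epithelial covariate and -1.38 to -0.83 over the fits without 1 library. The 5 genes called in the whole table became 55 with the epithelial covariate, 3 with no filter and with robust eBayes, 2 with eBayes without trend and with median-of-ratios scaling, and 0 with a pseudocount of 0.1 or a minimum mean of 5 TPM; without 1 library they were 0 to 1524. With a control left out, the lone control is assumed to vary like the other libraries. The cause was not tested.

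With the mouse number as a replicate block, which rests on mice 2 and 3 since mouse 1 has no partner, 9 macrophage genes and 1858 genes in all passed (3.59% in the lower direction), with a median of -1.38 for the 10. Lyve1 was 0.095, Esr1 0.57, Colec12 -0.13, Scara5 -0.13 and Selenop -0.14 under this block. Deviations of same-numbered mice from their group means correlated at -0.06 and -0.07 across genes. With 2 controls, the deviations of 1 mirror those of the other. This check therefore cannot show whether same-numbered mice shared anything beyond the number.

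Of 160 alternative values for the 10 genes, 131 kept direction and side of the threshold, 25 passed newly and 4, all of Lyve1, changed sign. Lyve1 was 0.10 with library weights and -0.28 to 0.12 without 1 library. Other changes of sign were Esr1 0.15, Colec12 -0.076 and Selenop -0.023 with library weights, Csf1 0.073, Maf 0.038, Psap 0.16 and Scarb2 -0.020 with the epithelial covariate, Colec12 -0.11 with quantile normalization, and Colec12 -0.052 and Selenop -0.045 without Rpph1 and Rn45s. Without 1 library, Esr1 ran from -0.68 to 0.57, Selenop from -0.14 to 0.18, Irak1 from -0.24 to 0.059, Psap from -0.28 to 0.029, Colec12 from -0.13 to 0.084 and Scara5 from -0.13 to 0.87.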

Other observations

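The 13 lymphocyte markers were at a median of 88.5% of the control mean in knockout-labelled mouse 1, 95.6% in mouse 2 and 35.1% in mouse 3. Of them, 11 had a negative and 2 a positive log2 fold change. Cd3e and Cd3g, chains of the T cell receptor complex, were at 9.76 and 13.7 TPM and at 9.24 and 11.6 TPM in the 2 control libraries. For knockout-labelled mouse 1 they were at 35.9 and 40.4 TPM, above both controls, in mouse 2 at 17.2 and 14.2 TPM, and in mouse 3 at 2.57 and 1.57 TPM. Cd3e and Cd3g were the 2 markers with a positive fold change and were chosen after inspection of their values. Cd4, chosen likewise, was at 9.67 and 8.43 TPM in the controls. It was at 8.40, 4.54 and 2.04 TPM in knockout-labelled mice 1, 2 and 3, an order like that of most macrophage genes. Dendritic cell markers were at a median of 105.5% of the control mean in mouse 1, 65.7% in mouse 2 and 28.5% in mouse 3. Mast cell markers were at 40.3%, 25.8% and 19.6%, and neutrophil markers at 37.2%, 49.8% and 27.1%, so in mouse 1 these lists stood lower than the macrophage genes, at 72.1%. Marco, a scavenger receptor of some macrophages, was at 16.4 TPM in control mouse 2, 4.24 TPM in control mouse 3 and 1.08 to 1.53 TPM in the knockout-labelled libraries, so that the 2 controls themselves lay far apart.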
